A study of Mus musculus with 3 samples.

Results

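Binding of HA-tagged NUR77 was examined at 7 genes of the Toll-like receptor and NF-κB pathway, namely the receptors Tlr2 and Tlr4, the NF-κB subunit genes Nfkb1 and Rel, and the regulators Nfkbia, Tnfaip3 and Nfkbiz. A peak was counted as a member if its centre lay in a fixed window around one of these genes, in coordinates of mouse build mm9. The windows were 150 to 250 kb long and 1.48 Mb in all, or 0.0557% of the nuclear chromosomes. They held 183 of the 52946 peaks of the series, with 35 of 6777 in replicate 1, 111 of 37307 in replicate 2 and 37 of 8862 in replicate 3. All 3 samples belong to 1 group. They are RAW264.7 cells, an established mouse macrophage line, that carried the doxycycline-inducible transgene pINDUCER20b-HA-NUR77. Each replicate came from 6 dishes given doxycycline at 1 µg/mL for 18 hours, and the labels name no other stimulus. Dually cross-linked chromatin was pulled down through the HA tag, and the labels do not address the cells' own NUR77. The labels do not say whether the stable line is 1 clone or whether the replicates were prepared on separate days, so the spread between replicates may be technical. No uninduced, untagged or control-antibody sample was analysed here, so each value below describes called peaks and compares parts of the genome, not conditions.

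Toll-like receptors sense microbial products, and TLR2 and TLR4 do so at the macrophage surface. TLR2 recognises bacterial lipoproteins and TLR4 recognises lipopolysaccharide. Both signal through adaptor proteins to a kinase complex that marks IκBα, the product of Nfkbia, for degradation, which frees NF-κB dimers to enter the nucleus. Nfkb1 encodes a precursor that is processed to a DNA-binding NF-κB subunit, and Rel encodes c-Rel, a subunit with a transactivation domain. Several NF-κB target genes act back on the pathway, among them Nfkbia itself, Tnfaip3, which encodes a ubiquitin-editing enzyme that limits signalling, and Nfkbiz, which encodes the nuclear protein IκBζ. NUR77 is an orphan nuclear receptor of the NR4A family, induced early by inflammatory stimuli, that can bind as a monomer to an octamer known as NBRE.

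Promoter sequences from RefSeq (GRCm38.p6) were available here for 4 of the 7 genes. They are shown because they cover the receptors, the subunits and the regulators, and include the window without any replicated region (Nfkbia) and a window with many (Rel). Each run gives the 250 bases before the annotated start, 5′ to 3′ on the strand of the gene. Capitals mark matches to the consensus κB decamer of NF-κB and, in Tlr2 alone, to the nuclear receptor hexamer AGGTCA on the opposite strand. The Tlr2 promoter lies at chr3:83841609-83841858, that of Rel at chr11:23770970-23771219, that of Nfkbia at chr12:55492648-55492897 and that of Tnfaip3 at chr10:19015411-19015660, all on the minus strand of GRCm38.p6. These positions are of another build than the peaks and were not converted, so no peak is placed on these promoters.
Tlr2: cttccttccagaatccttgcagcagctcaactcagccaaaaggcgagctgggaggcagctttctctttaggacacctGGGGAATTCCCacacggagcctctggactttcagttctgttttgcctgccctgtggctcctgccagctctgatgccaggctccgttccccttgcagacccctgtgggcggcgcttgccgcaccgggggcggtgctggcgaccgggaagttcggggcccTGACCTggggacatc
Rel: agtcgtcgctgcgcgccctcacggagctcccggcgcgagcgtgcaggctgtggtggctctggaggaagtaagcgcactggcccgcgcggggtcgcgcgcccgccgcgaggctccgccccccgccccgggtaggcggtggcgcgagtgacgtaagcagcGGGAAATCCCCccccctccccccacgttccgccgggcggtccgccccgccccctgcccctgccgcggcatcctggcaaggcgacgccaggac
Nfkbia: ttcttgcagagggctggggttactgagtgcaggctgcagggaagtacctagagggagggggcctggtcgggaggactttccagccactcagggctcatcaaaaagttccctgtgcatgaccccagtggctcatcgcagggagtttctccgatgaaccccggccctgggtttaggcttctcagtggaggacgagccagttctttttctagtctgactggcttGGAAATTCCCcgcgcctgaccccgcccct
Tnfaip3: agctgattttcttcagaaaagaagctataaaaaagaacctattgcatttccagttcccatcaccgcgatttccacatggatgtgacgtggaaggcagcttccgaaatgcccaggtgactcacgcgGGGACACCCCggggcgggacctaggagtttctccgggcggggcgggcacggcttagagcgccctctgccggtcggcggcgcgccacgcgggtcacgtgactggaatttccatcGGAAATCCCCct

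Of the 5 promoters listed for these genes, the 4 printed held a κB match, against 7.28% of 32536 RefSeq mouse promoter sequences of the same length. The genes were chosen as members of the NF-κB pathway. In Tlr2 and Rel 2 matches overlapped each other, Tnfaip3 held 2 separate matches and Nfkbia held 1. A second listed promoter of Tnfaip3 held none and is not printed. The NBRE octamer, AAAGGTCA on either strand, was in none of the 5 member promoters and in 1.35% of all promoters. The hexamer AGGTCA, which is contained in the octamer, was in 1 of the 5 and in 14.0% of all. These matches describe letters in a window of 250 bases and do not show a binding site, and the sequence under the peaks was not used here.

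Peaks were dense in 6 of the 7 windows in every replicate, and the Nfkbia window was the exception. Over the 7 windows together there were 23.6 peaks per Mb in replicate 1, against 2.55 per Mb over the nuclear chromosomes. Replicate 2 had 75 per Mb in the windows and 14.1 per Mb over the chromosomes. The density in replicate 3 was 25 per Mb in the windows, against 3.34 per Mb. The windows thus had 9.27, 5.34 and 7.49 times the density of the whole list in replicates 1, 2 and 3, a mean of 7.36 ± 1.97 (SD, n = 3). The ratio was above 1 in 3 of 3 replicates, and the lowest of the 3 came from replicate 2, whose list is the longest. No test was applied, since there is 1 group and the windows were placed on chosen genes. The comparison with whole chromosomes does not set gene-poor or unmappable sequence apart. Against the 1 Mb on each side of each window, a comparison added after seeing the data, the ratio was 6.19 ± 2.01 (SD, n = 3).

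**Figure D1:**
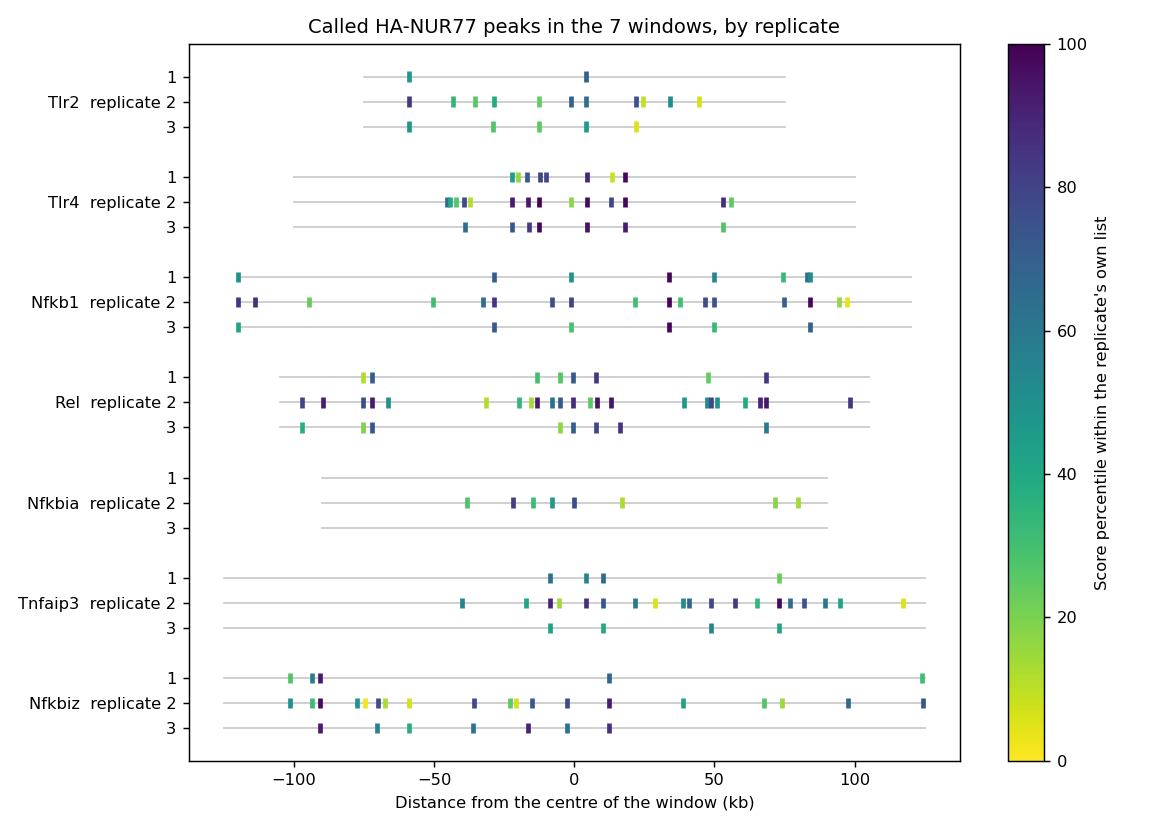
Called peaks in the 7 windows. The x axis is the distance from the centre of the window in kb, each grey line is the window in 1 replicate, each mark is a peak and its colour is the score percentile within that replicate's own list, from 0 to 100. The Nfkbia window has 8 marks in replicate 2 and none in replicates 1 and 3, while the other 6 windows have marks in all 3 replicates.

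In mm9 the windows were chr3:83570000-83720000 for Tlr2, chr4:66400000-66600000 for Tlr4, chr3:135180000-135420000 for Nfkb1 and chr11:23550000-23760000 for Rel. Those of the regulators were chr12:56500000-56680000 for Nfkbia, chr10:18600000-18850000 for Tnfaip3 and chr16:55700000-55950000 for Nfkbiz. The Rel window had 8, 23 and 8 peaks in replicates 1, 2 and 3, or 11.4 ± 3.57 times the density of the whole lists (SD, n = 3). The Tlr4 window followed with 8, 14 and 7 peaks and 10.4 ± 5.35 times. Nfkb1 had 8, 17 and 6 peaks and 8.53 ± 4.11 times, Nfkbiz had 5, 19 and 7 peaks and 7.21 ± 1.59 times, and Tlr2 had 2, 11 and 5 peaks and 6.81 ± 2.75 times. Tnfaip3 had 4, 19 and 4 peaks and 5.49 ± 0.741 times. These 6 windows were above the density of the whole list in 3 of 3 replicates, but neighbours in this order differed by less than the larger SD of the pair. Nfkbia had 0, 8 and 0 peaks, with 3.16 times the density of the list in replicate 2 and a mean of 1.05 ± 1.83.

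**Figure D2:**
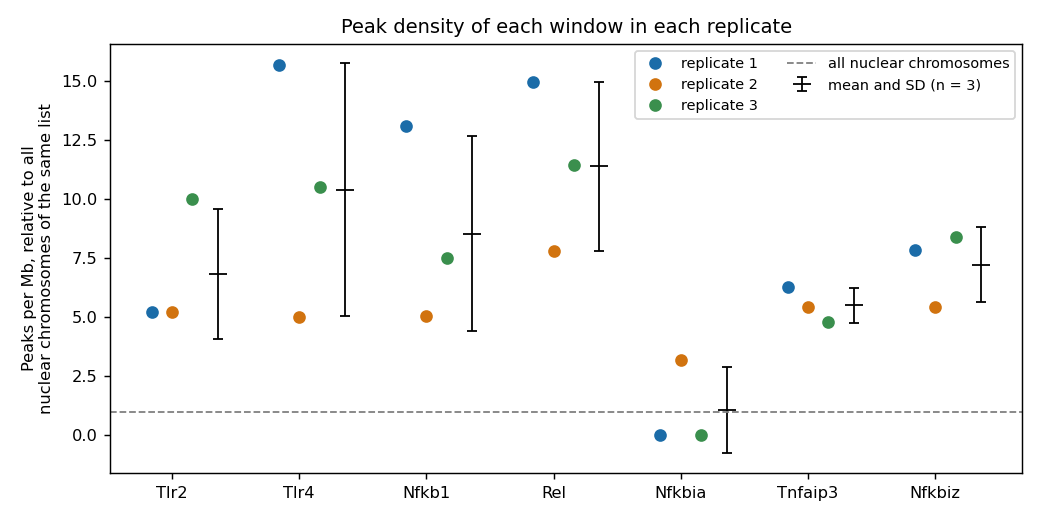
Peak density of each window relative to that of all nuclear chromosomes in the same list. Points are the 3 replicates, the black mark and bar are the mean and SD (n = 3), and the dashed line is 1. Replicate 1 ranges from 5.22 for Tlr2 to 15.7 for Tlr4 in the 6 windows that have peaks in it, and Nfkbia is at 0 in replicates 1 and 3.

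Overlapping peaks of the 3 lists were merged into regions, 116 in the windows. Peaks of 2 or more replicates met in 43 of them (37.1%) and peaks of all 3 in 24 (20.7%), against 25.4% and 12.3% of the 38463 merged regions of the series. Regions of all 3 replicates made up 55.8% of these 43, against 48.4% of the regions of at least 2 replicates over the series. All 43 included replicate 2. They came to 29.1 per Mb in the windows and 3.67 per Mb over the nuclear chromosomes. Without replicate 2 the windows held 23 regions common to replicates 1 and 3, or 15.5 per Mb, against 1.83 per Mb. The share of replicate 2 peaks that overlapped another replicate was 38.7% in the windows and 25.7% in the list, and 21.6% in the windows and 12.7% in the list overlapped both. In replicate 1 the corresponding shares were 91.4% in the windows and 94.3% in the list for any overlap, and 65.7% and 69.1% for both. In replicate 3 they were 94.6% and 93.2% for any, and 62.2% and 52.8% for both. The widest gap between windows and list, relative to the list, was in replicate 2, and the difference was not tested.

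The number of regions in a window was set beside consecutive windows of the same length over the nuclear chromosomes, as a description and not as a test. Rel had 9 regions of at least 2 replicates, and 0.435% of all 210 kb windows had 9 or more. Tlr4 had 8, and 0.664% of 200 kb windows had as many. Nfkbiz also had 9 in its longer window, a number reached by 0.735% of 250 kb windows. Nfkb1 had 7, reached by 1.69% of 240 kb windows, and Tlr2 had 5, reached by 1.85% of 150 kb windows. Tnfaip3 had 5, reached by 5.1% of 250 kb windows and by 14.1% of those that held any region. For Nfkbia, 69.9% of 180 kb windows likewise had no such region. Limited to windows with at least 1 region, the shares were 1.33% for Rel, 2.08% for Tlr4, 2.04% for Nfkbiz, 4.83% for Nfkb1 and 6.86% for Tlr2. The receptors had 37.1 regions of at least 2 replicates per Mb, the subunit genes 35.6 and the 3 regulator genes 20.6, where Nfkbia adds length and no region.

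**Figure D3:**
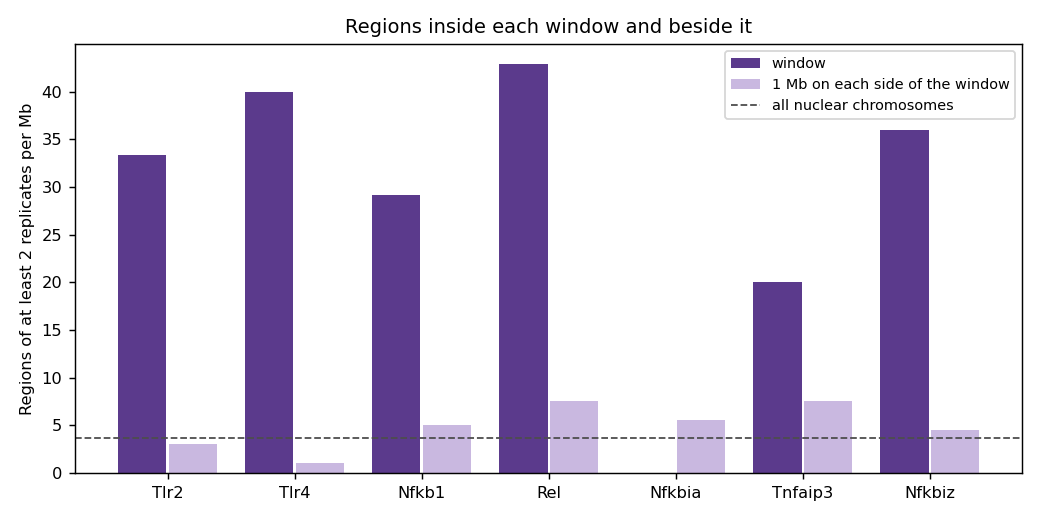
Regions of at least 2 replicates per Mb inside each window (dark bars) and in the 1 Mb on each side of it (light bars), with the density of all nuclear chromosomes as a dashed line at 3.67. The bar of the Tlr4 window stands at 40.0 and that of its flanks at 1.00, while Nfkbia has 0 inside and 5.50 beside its window.

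The Tlr4 window held a compact group of peaks with sequence free of calls on both sides. It had 40.0 regions of at least 2 replicates per Mb, against 1.00 per Mb in the 1 Mb on either side. These flanks were themselves sparse, since the nuclear chromosomes had 3.67 per Mb. Of its 8 regions, 5 held all 3 replicates, and these 5 lay within chr4:66477376-66518575. The region at chr4:66517876-66518575 had scores of 263, 812 and 176 in the 3 lists in turn. Scores are those the authors gave each peak, on a scale the sources do not state, so they were read as a percentile within its own list, from 0 for the lowest to 100 for the highest. The lists hold 6777, 37307 and 8862 peaks, so percentiles of different lists are not on a common scale. This region stood at percentiles 98.0, 97.7 and 92.2, within the best-scored 10% of all 3 lists.

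Its neighbour at chr4:66504176-66504875 had scores of 120, 703 and 237, at percentiles 89.7, 96.9 and 95.6. At chr4:66487176-66487825 the scores were 83.3, 959 and 346, at percentiles 79.7, 99.1 and 98.1. The replicate 2 value is part of a tie of 549 peaks at 958.844, with 60 peaks above it. These 3 regions were high in all replicates. The region at chr4:66477376-66478075 was at percentiles 44.7, 92.8 and 72.8, so replicate 1 ranked it below its median peak. At chr4:66482776-66484025 a 1250 bp peak of replicate 2 joined a replicate 1 peak and a replicate 3 peak whose centres lay 795 bp apart and which did not overlap each other. It counts as a region of all 3 replicates only through replicate 2. The window also had 6 peaks of replicate 2 alone, the best-scored at chr4:66454376-66454925 with 115 (percentile 64.0), and 2 of replicate 1 alone. The better-scored of these 2, at chr4:66489767-66490016, lay among the regions of all 3 replicates and had 80.3 (percentile 78.3). In replicate 1, 4.21% of the peaks with this score or more had no partner in another list. The nearest peaks outside the window lay 401375 bp before its start and 360600 bp after its end. Between the first and last peak of this window no peak number was absent in any replicate. The same held for Tlr2 in replicates 1 and 2 and for Tnfaip3 in replicate 2. In lists 1, 2 and 3 as a whole 39.1%, 19.7% and 38.8% of the numbers were absent. The count within a window leaves out its ends, which lowers it against those shares.

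The Tlr2 window, for the other receptor, had 5 regions of at least 2 replicates and 2 of all 3. At chr3:83648891-83649490 the scores were 63.2, 115 and 46.7, at percentiles 68.5, 63.7 and 45.8. At chr3:83585691-83586290 they were 42.3, 239 and 48.5, at percentiles 46.5, 83.6 and 47.8. Their percentiles in replicates 1 and 3 were between 45.8 and 68.5. The other 3 Tlr2 regions were of replicates 2 and 3. Over the 3 lists, none of the 18 Tlr2 peaks was in the best-scored 10%, against 9 of 29 Tlr4 peaks. Nfkbia also had none, of 8 peaks, and Tnfaip3 had 1 of 27. In the Tlr2 window replicate 2 alone had 6 further peaks, the best-scored at chr3:83643541-83643940 with a score of 135 (percentile 69.3). The window held 33.3 regions of at least 2 replicates per Mb, against 3.00 per Mb in its flanks.

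The best-ranked member was in the Nfkb1 window, at chr3:135333291-135333990. Its scores were 286, 959 and 406 in replicates 1, 2 and 3, at percentiles 98.4, 99.1 and 98.7. It ranked 112 of 6777 peaks in replicate 1 and 115 of 8862 in replicate 3, and it shared the tie at 958.844 in replicate 2. Its peak centres lay within 27 bp of each other. The 3 lists thus placed it in the same narrow range.

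The percentiles of the other 5 regions of all 3 replicates in the Nfkb1 window differed more between the lists. The region at chr3:135383891-135384490 had scores of 45.9, 938 and 77.5, at percentiles 51.3, 98.3 and 69.7. That at chr3:135271091-135271590 was at percentiles 70.6, 84.5 and 72.4. The regions at chr3:135179791-135180440, chr3:135298491-135299140 and chr3:135349441-135350117 were between percentiles 29.3 and 53.7 in replicates 1 and 3 and between 74.5 and 84.9 in replicate 2. Counted from the top, they ranked further down in the longer replicate 2 list, at 5624, 7719 and 9518.5, than in the other lists. Of these the first lay 115 bp inside the start of the window, so the border decides its membership. A seventh region was of replicates 1 and 2. Replicate 2 alone had 10 peaks here, the best-scored at chr3:135185641-135186190 with 284 (percentile 86.8), and replicate 1 alone had 1.

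The Rel window had 9 regions of at least 2 replicates, 6 of them of all 3. The region at chr11:23662557-23663256 had scores of 93.3, 528 and 98.9, at percentiles 83.2, 94.8 and 78.7. That at chr11:23723157-23723856 had scores of 93.9, 466 and 61.3, at percentiles 83.4, 93.6 and 59.9. The regions at chr11:23582607-23583306 and chr11:23654157-23654806 ranked in the upper part of each list. Over the 3 lists the first was at percentiles 71.0, 92.8 and 73.4, and the second at 72.3, 88.2 and 70.7. Those at chr11:23579257-23579856 and chr11:23649657-23650256 were low in replicates 1 and 3, at percentiles between 11.8 and 26.8. Of the Rel peaks, 6 of 23 were in the best-scored 10% of replicate 2, and 0 of 8 in that of replicates 1 and 3 each. Counted from the top, the best Rel peak ranked 1124 of 6777 in replicate 1, 1932 of 37307 in replicate 2 and 1284 of 8862 in replicate 3. The lists differ in length, so these shares are not on a common scale.

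In this window replicate 2 alone had 14 peaks, of which 8 were below the median of its list. The best-scored of them, at chr11:23667957-23668506, had 514 (percentile 94.6), and 7.02% of the 2022 replicate 2 peaks scored at least as high overlapped no other list. Replicate 3 alone had 1, at chr11:23671087-23671436, with 124 (percentile 85.5). Of replicate 3 peaks scored at least as high, 3.58% overlapped no other list, so a peak of this score without a partner was uncommon in that list. By their order in GRCm38, Pus10 and Papolg are the protein-coding genes next to Rel. No mm9 gene annotation was used here, so peaks are not assigned to promoters, introns or to the one gene rather than the next in any of the windows.

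At Nfkbia, which encodes the inhibitor IκBα, no peak was called in replicates 1 and 3. Replicate 2 had 8 peaks, at scores from 31.1 to 222. The best-scored lay at chr12:56567917-56568266 (percentile 82.0). Of the 6710 replicate 2 peaks with at least this score, 23.9% overlapped no other list, so the lack of a partner was not unusual there. The next, with a score of 170, lay at chr12:56589717-56590116. The absence of replicated regions depends on the borders. A region of replicates 1 and 2 at chr12:56499367-56499866, with scores of 34.9 and 103, was centred 384 bp outside the window, and a region of all 3 replicates at chr12:56710517-56711166, with scores of 47.8, 150 and 50.6, lay 30.8 kb beyond the other border. The 1 Mb on each side held 5.50 regions of at least 2 replicates per Mb. Read depth is unknown here, so a window without a peak is not shown to be unbound.

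The Tnfaip3 window had 5 regions of at least 2 replicates and 3 of all 3. At chr10:18797579-18798328 the scores were 30.6, 762 and 43.1, at percentiles 23.2, 97.3 and 41.3. It was in the best-scored 10% of replicate 2 and below the median peak of the other lists. At chr10:18716029-18716678 the scores were 56.5, 337 and 43.8, at percentiles 63.3, 89.6 and 42.2. At chr10:18735079-18735528 they were 58.8, 154 and 41.7, at percentiles 65.5, 73.2 and 39.3. None of the 3 was above the median peak of replicate 3. Replicate 2 alone had 14 peaks, the best-scored at chr10:18782179-18782678 with 234 (percentile 83.1). The window held 20.0 regions of at least 2 replicates per Mb, against 7.50 per Mb in its flanks.

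The Nfkbiz window had 9 regions of at least 2 replicates, 2 of them of all 3. Over the series 48.4% of regions of at least 2 replicates held all 3. At chr16:55733846-55734545 the scores were 153, 706 and 183, at percentiles 93.3, 96.9 and 92.8, so the region was within the best-scored 10% of all 3 lists. At chr16:55837096-55837695 the scores were 61.1, 421 and 127, at percentiles 67.0, 92.5 and 85.9. Of the other regions 3 were of replicates 1 and 2 and 4 of replicates 2 and 3. Replicate 3 alone had a peak at chr16:55808303-55808502, 200 bp wide and scored 156. Among the 883 peaks of that list with this score or more, 3.85% overlapped no other list. Replicate 2 alone had 10 peaks, the best-scored at chr16:55809746-55810195 with 150 (percentile 72.3). A region of all 3 replicates with scores of 50.4, 397 and 89.8 was centred 1180 bp before the start of the window and is not counted, while a region of replicates 1 and 2 lay 743 bp inside its end.

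**Figure D4:**
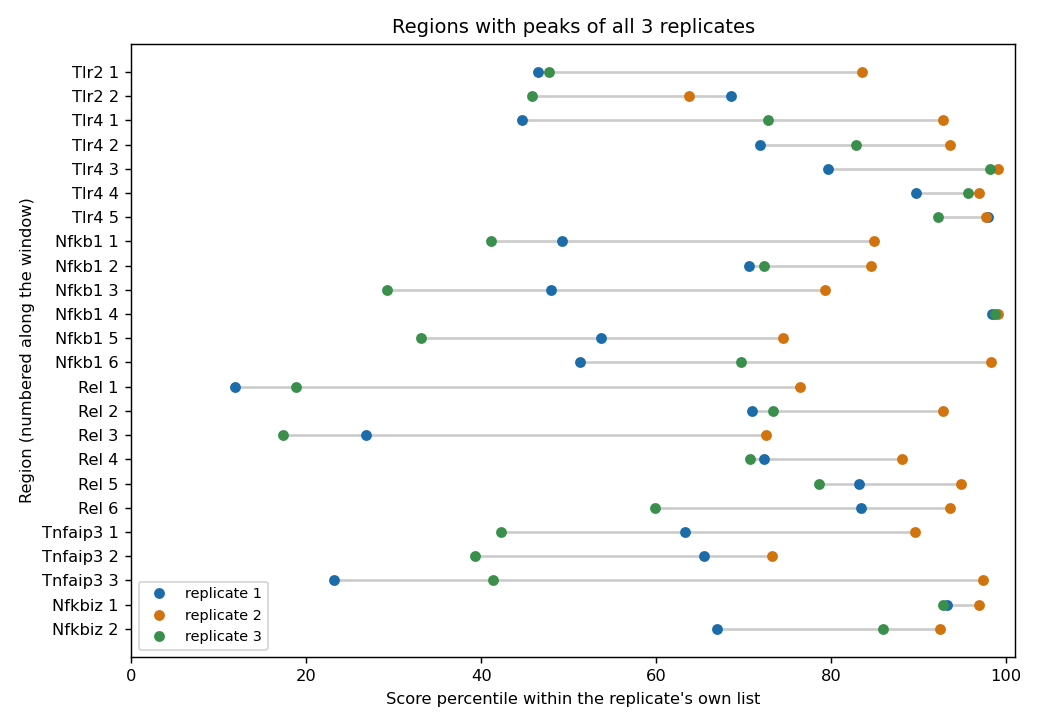
Score percentiles of the 24 regions with peaks of all 3 replicates, numbered along each window. The x axis is the percentile within the replicate's own list, each point is a replicate and the grey line joins the lowest to the highest. The list of replicate 2 is the longest, so percentiles of different lists are not on a common scale. Region 4 of Nfkb1 lies at 98.4 to 99.1 in all 3 lists, whereas region 3 of Tnfaip3 ranges from 23.2 in replicate 1 to 97.3 in replicate 2.

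Over all windows, member peaks ranked somewhat above the middle of their lists. Their median percentiles in the 3 lists were 56.8, 63.7 and 59.9. These average 60.2 ± 3.46 (SD, n = 3), where a whole list has 50. Within the higher-scored 50% of each list the direction turned, with a mean of 48.8. The best-scored 10% of the lists held 3 of 35, 16 of 111 and 6 of 37 member peaks, or 8.57%, 14.4% and 16.2%. The shift was small. Of the 24 regions of all 3 replicates, 3 were within the best-scored 10% of every list, one each at Nfkb1, Tlr4 and Nfkbiz, and 13 (54.2%) were above the median of every list, against 54.1% over the series. In the whole lists 10.6% of regions of all 3 replicates were within the best-scored 10% of every list, so the 3 members are close to that share. Replicate 2 gave the highest percentile at 22 of the 24 regions, as it did at 92.7% of such regions over the series. Across the 24 regions Spearman's rho between the scores was 0.54 (replicate 1 with 2), 0.79 (1 with 3) and 0.77 (2 with 3), over regions chosen for a peak in all 3 lists. Genome-wide, the 4723 such regions gave 0.67, 0.79 and 0.72.

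The distance between neighbouring regions depends on their density, which was 29.1 per Mb in the windows and 3.67 per Mb over the nuclear chromosomes. It was not compared at equal density, so the values below are no separate trait of the windows. Of the 43 with at least 2 replicates, 21 (48.8%) had another such region within 12.5 kb between centres, against 35.6% of these regions over the nuclear chromosomes. The median distance between neighbours was 8.73 kb at Tlr4, 14.8 kb at Rel, 17.4 kb at Tlr2, 17.8 kb at Nfkbiz, 18.6 kb at Tnfaip3 and 26.2 kb at Nfkb1. Their width did not stand out, with a median of 650 bp against 649 bp over the series. The centres of the replicates' peaks in a region lay a median of 68.0 bp apart at the furthest.

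The authors' deposited table of intervals covered by at least 2 replicates held 89 intervals in the windows, with 17 at Tlr4, 21 at Rel, 18 at Nfkb1, 13 at Nfkbiz, 11 at Tnfaip3, 9 at Tlr2 and 0 at Nfkbia. Joined where they touch, the intervals of the authors' deposited table form 44 stretches, 1 more than the 43 merged regions. Its replicate names matched the lists for 56 of the 89 intervals as written and for 89 of 89 with the names of replicates 2 and 3 exchanged. The deposited sources thus disagree on which list is replicate 2 and which is replicate 3. Replicate numbers here follow the sample titles, and which source is right is not known. Between the first and last listed peak of each window, 25.5%, 11.9% and 28.8% of the peak numbers were absent from lists 1, 2 and 3. Numbers absent at the ends of a window are not in these shares, which lowers them against those of the whole lists.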

How the data were processed

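The data are ChIP-seq peak lists of 3 replicates. Coordinates are of mm9, per the submitters' processing notes. The authors deposited 1 list per replicate, with a position and a score for each peak and names of the form that the caller MACS gives. The scale of the score, the caller's version and threshold, the aligner and the use of control reads were not stated there. Read counts are not in the lists, so depth is unknown. The authors also deposited intervals covered by at least 2 replicates, without a score.

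Peaks were assigned to the 7 windows by their centre, and positions are printed 1-based. Overlap meant at least 1 bp, and overlapping peaks were merged into regions. Percentiles use mid-ranks for ties. Chromosome lengths came from GenomeInfoDb 1.38.1, and windows of equal length ran from the first base of each chromosome. All 7 genes are named. Positions are given for regions of all 3 replicates and for the best-scored peak of each window that was seen in 1 replicate alone. The genes, windows and measures were chosen with earlier results of these data known, and the 1 Mb flanks after seeing the values, so no test was applied. Motifs were sought on both strands of the RefSeq promoters of GRCm38.p6. Peak assignment and merging were tested on simulated peaks. Python 3.11.15, numpy 2.4.6, pandas 2.3.3 and matplotlib 3.10.9 were used.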

Additional observations from a re-analysis of the deposited data

How the results depend on the processing

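Of 74 values recomputed under other settings, 65 stayed within 1.5 times the main count or within 1 SD of the main value. This rule is weak for the shares of peaks that overlap another replicate or both others, whose SDs were 31.4 and 24.5 percentage points. Counting peaks by any overlap with a window left every value as it was. With the higher-scored 50% of each list, the windows held 35.3 peaks per replicate on average, 24 regions of at least 2 replicates and 13 of all 3. The best-scored 6777 peaks of each list gave 32.3 peaks and 25 regions of at least 2 replicates. These lower counts follow from the shorter lists. The median percentile of member peaks, 60.2 in the whole lists, was 48.8 within the higher-scored 50% of each list, below the middle, and 55.2 with 6777 peaks from each, with percentiles ranked anew in the shortened lists. Leaving out each replicate gave 36.0 to 74.0 peaks and 23 to 35 regions, lowest without replicate 2. The density of the windows relative to the nuclear chromosomes was between 6.41 and 8.67 under the alternatives run, and 6.19 relative to their flanks. Regions of all 3 replicates and overlap with both others have no value when 1 replicate is left out. No paired analysis was possible because the samples form 1 group. The 3 replicates, the unknown depth and the lack of a control limit what these values show.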
